A study of Mus musculus with 8 samples.

Results

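The expression of 8 genes that mark macrophages or carry the Csf1 signal was examined in the mouse uterus at gestation day 3.5 (GD3.5): the growth factor Csf1, its receptor Csf1r, and the macrophage genes Adgre1, Cd68, Aif1, Mrc1, Cd163 and Mertk. The genes were chosen by name, and all 8 were found among the 24963 genes of the table. The Nr2f2 f/f group held 4 mice with floxed Nr2f2 alleles and no Cre, and the Nr2f2 d/d group held 4 mice with the same floxed alleles and Cre in 1 copy of Pgr (Pgr Cre/+), so that Nr2f2 was deleted in cells that express the progesterone receptor. All were C57B6/J females at 8 weeks by the sample labels, and 2 to 3 months by the description of the study, which had mated with vasectomized males and carried no embryo. Whole uterus was taken, with 1 RNA-seq library per mouse, and replicates carry the numbers 1 to 4 of the sample titles. The deletion followed Pgr, and was not directed at macrophages. Only the mutants carry the Cre knocked into Pgr, so its presence and the loss of Nr2f2 cannot be told apart. The first group is called control and the second mutant.

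Macrophages are long-lived phagocytes that take up dead cells, debris and pathogens, and they are among the common leukocytes of the uterine stroma. Their survival and growth depend on signals through CSF1R, a receptor tyrosine kinase with the ligands CSF1 and IL34. In the uterus, Csf1 is made by the epithelium under ovarian steroids. F4/80 (Adgre1), CD68 and IBA1 (Aif1) are used as general macrophage markers, the mannose receptor (Mrc1) and the haemoglobin scavenger receptor (Cd163) mark resident scavenging cells, and MERTK is a receptor through which macrophages recognise apoptotic cells.

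Windows of 250 bases before the RefSeq start (GRCm38.p6, the build of mm10) were read for the 6 of the 8 genes that matched the promoter table, Csf1, Cd68, Mrc1, Cd163, Aif1 and Mertk. Aif1, Mrc1 and Cd68 are printed because each held the core of a PU box, the site of the myeloid factor PU.1, and because the comparisons turned on Aif1 and on its ratio to Mrc1. Capitals mark 3 sets of letters searched on both strands: the PU box core GAGGAA, the AP-1 site TGAGTCA, and the nuclear receptor half-site AGGTCA. The windows are chr17:35176053-35176302 on the minus strand (Aif1), chr2:14229164-14229413 on the plus strand (Mrc1) and chr11:69666171-69666420 on the minus strand (Cd68), each written 5′ to 3′ toward the start.
Aif1: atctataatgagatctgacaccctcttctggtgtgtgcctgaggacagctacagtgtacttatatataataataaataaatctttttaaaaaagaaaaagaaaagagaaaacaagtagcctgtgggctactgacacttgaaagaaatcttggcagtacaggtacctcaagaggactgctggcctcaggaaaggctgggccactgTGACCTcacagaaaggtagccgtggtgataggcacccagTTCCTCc
Mrc1: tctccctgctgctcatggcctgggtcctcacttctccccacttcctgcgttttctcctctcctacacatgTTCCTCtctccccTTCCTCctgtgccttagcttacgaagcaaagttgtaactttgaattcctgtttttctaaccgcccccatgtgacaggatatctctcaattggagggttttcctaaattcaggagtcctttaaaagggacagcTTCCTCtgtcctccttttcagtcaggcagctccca
Cd68: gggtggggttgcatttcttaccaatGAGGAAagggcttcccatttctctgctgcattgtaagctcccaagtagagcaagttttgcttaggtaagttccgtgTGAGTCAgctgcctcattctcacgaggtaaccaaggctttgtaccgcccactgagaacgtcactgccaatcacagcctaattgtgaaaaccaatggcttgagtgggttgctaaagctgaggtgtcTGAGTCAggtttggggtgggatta
The PU box letters began 7 bases before the start of Aif1, at 180, 167 and 35 bases before Mrc1, and 225 bases before Cd68. Thus 3 of the 6 windows held them, against 23.3% of 32851 mouse windows of the same length. The AP-1 letters were found in Cd68 alone of the 6, at 149 and 24 bases before the start (4.46% of all windows). The half-site, a sequence that COUP-TFII (the protein of Nr2f2) and other nuclear receptors can bind, was found in Aif1 alone, 46 bases before the start (14.0% of all windows). No matches overlapped, and the windows of Csf1, Cd163 and Mertk held none of the 3.

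The values are FPKM, fragment counts divided by gene length and library size, and the libraries held about 61500000 to 92600000 fragments. They were compared with limma on log2(FPKM + 0.5), a scale that understates changes of low genes, and 14323 genes whose mean reached 0.5 FPKM were tested. Nr2f2 itself had 25.3, 21.8, 25.7 and 23.5 FPKM in control replicates 1 to 4 and 9.66, 9.42, 6.90 and 9.74 in mutant replicates 1 to 4. It fell from 24.1 ± 1.8 FPKM (SD, n = 4) in controls to 8.93 ± 1.36 in mutants (log2 fold change -1.39, limma adjusted p = 0.00549), with 4 of 4 mutant libraries below all controls. The 6 uterine identity genes, which include Hoxa10, Hoxa11 and Pgr, summed to 294 to 361 FPKM in the controls and 262 to 360 in the mutants. Nr2f2 f/f replicate 2 resembled its group least: its correlation with the mean of the other 3 libraries was 0.950, against 0.967 to 0.990 for the remaining 7 libraries. Across all genes tested, 375 passed an adjusted p of 0.05, and 348 did so without that library. The count was less stable to the loss of others, at 42 without mutant replicate 2, 57 without mutant replicate 1, 62 without control replicate 1, 95 without control replicate 4 and 208 without control replicate 3.

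Of the 8 genes, 7 were abundant enough to be tested, and none passed an adjusted p of 0.05 in limma, where 2.62% of all genes tested did. Aif1 alone of the 7 had an unadjusted p below 0.05 with a fold of at least 1.4, the threshold of the study, which 8.80% of all genes tested met. It was also the only one of the 8 whose groups did not overlap, as in 15.4% of all genes tested. The estimates were higher in Nr2f2 d/d for 4 of the 7 and lower for 3, and their median was 0.12 on the log2 scale beside -0.02 for all genes tested. In whole tissue, fewer cells of a type and less RNA per cell cannot be told apart.

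**Figure D1:**
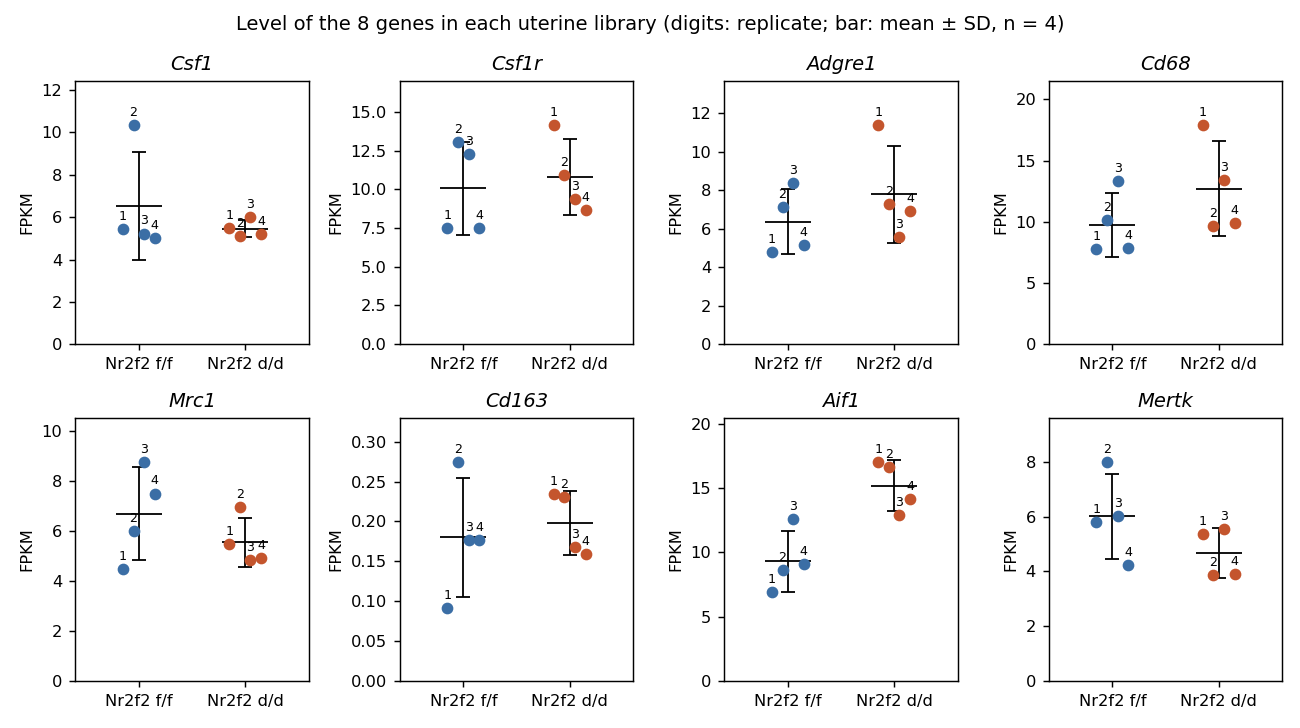
FPKM of the 8 genes in each library of Nr2f2 f/f (blue) and Nr2f2 d/d (orange), with the replicate number beside each point and bars for the mean ± SD (n = 4); the vertical scales differ between panels. Only for Aif1 do all 4 Nr2f2 d/d libraries lie above the Nr2f2 f/f libraries, and Csf1 has 1 control library at 10.4 FPKM against 5.04 to 5.45 in the other 3.

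Csf1 is the main ligand of the axis, a secreted cytokine that sustains monocytes and macrophages (chr3:107741048-107760469, minus strand, mm10; 5281 exon bases). Its level in the controls, replicates 1 to 4, was 5.45, 10.4, 5.23 and 5.04 FPKM. In the mutants, replicates 1 to 4, it was 5.48, 5.11, 6.02 and 5.22 FPKM. Apart from the high Nr2f2 f/f replicate 2, the 7 libraries lay close together and the groups overlapped. The log2 fold change was -0.18 (95% interval -0.66 to 0.30, limma adjusted p = 0.662), and the exact permutation test over all 70 arrangements of the libraries gave p = 0.8 (two-sided, n = 4 and 4). The sign came from replicate 2 of Nr2f2 f/f, without which the log2 fold change was 0.05 (adjusted p = 0.744).

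Il34, the second ligand of CSF1R, had 1.84, 4.38, 1.14 and 1.23 FPKM in the controls and 1.05, 1.42, 2.61 and 1.46 in the mutants, in replicate order. The same control library was the high one, as for Csf1. The log2 fold change was -0.21 (95% interval -1.05 to 0.63, adjusted p = 0.781), and 0.14 without that library (adjusted p = 0.788).

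Csf1r encodes the receptor (chr18:61100598-61132149, plus strand; 5774 exon bases). The 4 Nr2f2 f/f libraries had 7.49, 13.1, 12.3 and 7.50 FPKM. The 4 Nr2f2 d/d libraries had 14.2, 10.9, 9.40 and 8.67 FPKM. The controls split into a low and a high pair, and 3 of the 4 mutant values fell between these pairs. Accordingly the log2 fold change of 0.12 was within the spread (95% interval -0.40 to 0.63, adjusted p = 0.807 and exact permutation p = 0.657), and it lay between -0.02 and 0.25 as each library was left out in turn. Csf1r overlaps Hmgxb3 on the opposite strand over 15.1% of its exon bases, and with a kit that does not mark strand the fragments of this stretch cannot be told apart. Hmgxb3, named after its values were seen, was at 7.03 ± 0.427 FPKM (SD, n = 4) in the controls and 6.72 ± 0.515 in the mutants. The exons of the other 7 genes overlap no other gene of the annotation.

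Adgre1 encodes F4/80, an adhesion receptor of mature mouse macrophages (chr17:57358691-57483527, plus strand; 3238 exon bases). Its FPKM in control replicates 1 to 4 were 4.81, 7.13, 8.39 and 5.16. They were 11.4, 7.27, 5.57 and 6.92 in the mutants. Mutant replicate 1 exceeded every control and the other 3 lay within the control range. The log2 fold change was 0.26 (95% interval -0.29 to 0.80, limma adjusted p = 0.568 and exact permutation p = 0.429), and it was 0.07 without mutant replicate 1.

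Cd68 encodes a lysosomal glycoprotein of phagocytes (chr11:69664213-69666153, minus strand; 1257 exon bases). It measured 7.74, 10.1, 13.3 and 7.83 FPKM in the Nr2f2 f/f replicates. The Nr2f2 d/d replicates had 17.9, 9.62, 13.4 and 9.87 FPKM. As for Adgre1, mutant replicate 1 was the highest of all 8 libraries, and control replicates 2 and 3 overlapped the mutant values. The difference of 0.36 on the log2 scale did not pass the test (95% interval -0.19 to 0.90, adjusted p = 0.416 and exact permutation p = 0.286), and it was 0.18 without mutant replicate 1.

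Aif1 encodes IBA1, a calcium-binding protein that bundles actin in macrophages and microglia (chr17:35170991-35176068, minus strand; 1532 exon bases). Control replicates 1 to 4 had 6.91, 8.61, 12.6 and 9.09 FPKM. Mutant replicates 1 to 4 had 17.1, 16.7, 12.9 and 14.2 FPKM. All 4 mutant libraries were above all 4 controls, although the lowest mutant and the highest control nearly met. The means of 9.30 ± 2.39 and 15.2 ± 1.99 FPKM (SD, n = 4) stood at a ratio of 1.64, and the log2 fold change was 0.70 (SE 0.174, 95% interval 0.30 to 1.10). The unadjusted p in limma was 0.00351 and the adjusted p 0.0736, while the exact permutation test gave 0.0286, the smallest value that 4 against 4 libraries can give. As single libraries were left out, the adjusted p ranged from 0.0429 to 0.191, and it fell below 0.05 only without Nr2f2 f/f replicate 3, the control with the highest Aif1 (log2 fold change 0.85).

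Mrc1 encodes CD206, the mannose receptor of resident macrophages, which lymphatic and sinusoidal endothelium makes as well (chr2:14229392-14332057, plus strand; 6371 exon bases). The controls had 4.47, 5.99, 8.76 and 7.49 FPKM. The mutants had 5.45, 6.93, 4.83 and 4.93 FPKM. All mutant values lay inside the control range, and the log2 fold change was -0.22 (95% interval -0.68 to 0.23, limma adjusted p = 0.553 and exact permutation p = 0.343), or -0.09 without control replicate 3.

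Cd163, the receptor for haemoglobin bound to haptoglobin, was the lowest of the 8 (chr6:124304656-124330527, plus strand; 5461 exon bases). It had 0.092, 0.275, 0.177 and 0.177 FPKM in the controls and 0.234, 0.231, 0.168 and 0.159 in the mutants. These values stood for about 32 to 92 fragments per library, above the 0.00893 FPKM that 3 fragments are worth in the smallest library. Cd163 was below the filter and was not tested in limma, and the exact permutation test of log2(FPKM + 0.5) gave p = 0.686 (n = 4 and 4).

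Mertk, a receptor tyrosine kinase of the TAM family for dead-cell uptake (chr2:128698956-128802894, plus strand; 4336 exon bases), had 5.80, 8.01, 6.02 and 4.24 FPKM in the controls. In the mutants it had 5.37, 3.87, 5.54 and 3.92 FPKM. Mutant replicates 2 and 4 were below every control, and the other 2 overlapped them. The log2 fold change was -0.32 (95% interval -0.76 to 0.12, limma adjusted p = 0.373 and exact permutation p = 0.143), or -0.18 without control replicate 2.

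Since FPKM are per length, the levels of the 8 genes can be set side by side. In Nr2f2 f/f the order by mean FPKM was Csf1r, Cd68, Aif1, Mrc1, Csf1, Adgre1, Mertk and Cd163. Csf1r (10.1 ± 3.0 FPKM, SD, n = 4), Cd68 (9.75 ± 2.61) and Aif1 (9.30 ± 2.39) did not differ beyond their SDs, nor did the run from Mrc1 (6.68 ± 1.86) to Mertk (6.02 ± 1.55). The gaps between Aif1 and Mrc1 and between Mertk and Cd163 (0.18 ± 0.0748) were larger than the SDs of both neighbours. In Nr2f2 d/d, Aif1 stood first at 15.2 ± 1.99, before Cd68 (12.7 ± 3.88), Csf1r (10.8 ± 2.44), Adgre1 (7.79 ± 2.52), Mrc1 (5.54 ± 0.97), Csf1 (5.46 ± 0.406), Mertk (4.67 ± 0.904) and Cd163 (0.198 ± 0.04). Only the steps from Csf1r to Adgre1 and from Mertk to Cd163 exceeded the SDs of both neighbours.

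The estimates of Aif1, Mrc1 and Mertk differed in sign, so the ratios between genes were taken within each library, where library totals cancel. This choice was made after the values were seen and is a description. The Mrc1 FPKM divided by the Aif1 FPKM gave 0.647, 0.695, 0.696 and 0.824 in control replicates 1 to 4, and 0.319, 0.416, 0.374 and 0.347 in the mutants. The 2 groups were apart with no overlap, at means of 0.715 ± 0.0756 and 0.364 ± 0.0411 (SD, n = 4). On the log2 scale the ratio was -0.49 ± 0.15 in the controls and -1.46 ± 0.16 in the mutants, a difference of -0.97 that stayed between -1.04 and -0.91 as each library was left out. With Mrc1 as the fixed partner, the ratios of 4.43% of the other tested genes did not overlap between the groups, and with Aif1 as the partner 45.5% did not (ratios of FPKM + 0.5).

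Among the 21 pairs of the 7 tested genes, 3 had ratios that did not overlap: Mrc1 to Aif1, Aif1 to Mertk, and Cd68 to Mertk. The log2 ratio of Aif1 to Mertk was 0.63 ± 0.53 (SD, n = 4) in the controls and 1.71 ± 0.37 in the mutants. That of Cd68 to Mertk was 0.70 ± 0.38 and 1.42 ± 0.22. For comparison, 7.16% of tested genes had a ratio to Mertk that did not overlap, 3.94% a ratio to Cd68 and 45.5% a ratio to Aif1. The log2 ratio of ligand to receptor, Csf1 to Csf1r, was -0.46, -0.33, -1.23 and -0.57 in control replicates 1 to 4, and -1.37, -1.10, -0.64 and -0.73 in the mutants (means -0.65 ± 0.40 and -0.96 ± 0.34, SD, n = 4). The groups overlapped through control replicate 3, and the other 3 controls were above every mutant.

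**Figure D2:**
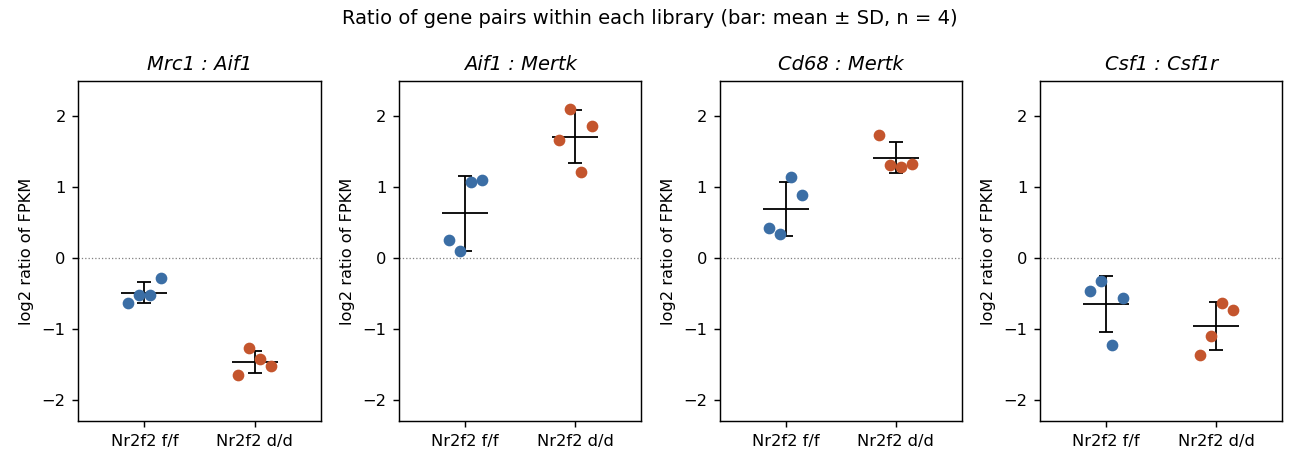
log2 ratio of the FPKM of 4 gene pairs within each library of Nr2f2 f/f (blue) and Nr2f2 d/d (orange), with bars for the mean ± SD (n = 4). The Mrc1 to Aif1 ratio lies at -0.63 to -0.28 in the controls and at -1.65 to -1.27 in the mutants, the Aif1 to Mertk and Cd68 to Mertk ratios also separate, and the Csf1 to Csf1r ratio overlaps through 1 control library at -1.23.

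How the 8 genes moved together from mouse to mouse was measured on the deviations of log2(FPKM + 0.5) from each group's mean, over the 8 libraries. Of 28 pairs, 24 had a positive Pearson r. Csf1r, Adgre1, Cd68 and Aif1 formed 6 pairs with r of 0.56 to 0.89, whereas the 7 pairs of Csf1 ranged from -0.28 to 0.77. Without the 2 libraries farthest from the median of the first gene, r in that block was 0.86 for Csf1r and Adgre1, 0.72 for Csf1r and Cd68, 0.86 for Csf1r and Aif1 and 0.55 for Adgre1 and Aif1, but 0.09 for Adgre1 and Cd68 and -0.27 for Cd68 and Aif1, so the last pair of relations rested on those libraries. None of the 28 passed an adjusted p of 0.05 in exact permutations within groups (smallest adjusted p = 0.126), while 5 had an unadjusted p below 0.05. All pairs share the depth and composition of the same 8 libraries.

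The receptor Csf1r followed Adgre1 with r = 0.89 (Spearman rho 0.79), with an exact permutation p of 0.0226 for r and 0.0417 for rho (adjusted 0.126 and 0.233). Without the 2 libraries farthest from the median of Csf1r, r was 0.86. Mrc1 and Aif1, whose ratio separated the groups, also followed each other inside the groups (r = 0.89, rho 0.93, exact permutation p = 0.0174 and 0.0139, adjusted 0.126 and 0.13; r = 0.69 without the 2 farthest libraries). Csf1 and its receptor had r = 0.50 and rho 0.57 (exact permutation p = 0.332 and 0.203, adjusted 0.56 and 0.431), and r was -0.09 without the 2 farthest libraries, so this relation rested on those. Csf1 was closest to Mertk (r = 0.77, rho 0.79, exact permutation p = 0.0191 and 0.0139, adjusted 0.126 and 0.13; r = 0.48 without the 2 farthest).

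**Figure D3:**
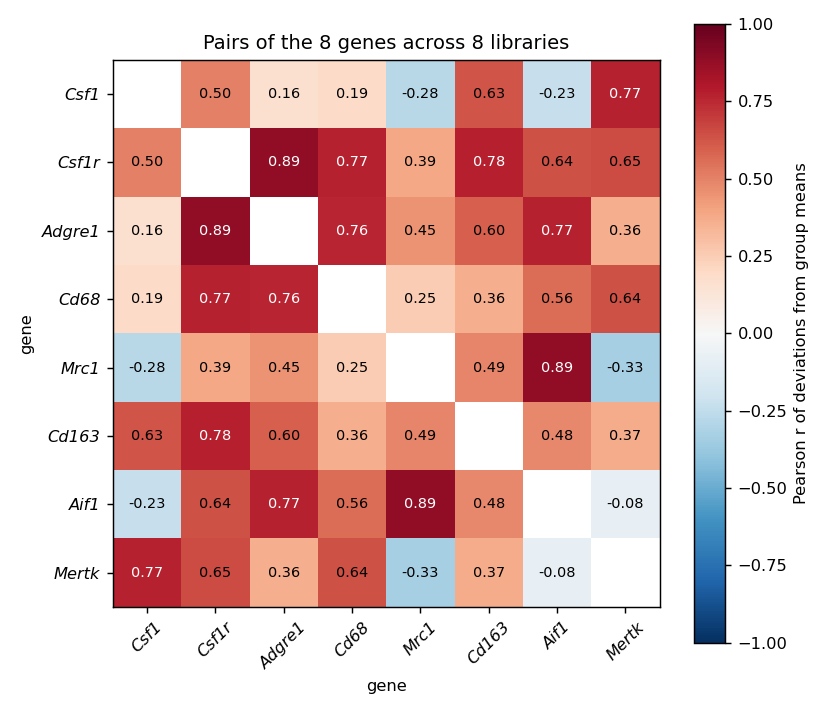
Pearson r of the deviations from group means for each pair of the 8 genes over 8 libraries, on a colour scale from -1 (blue) to 1 (red). The block of Csf1r, Adgre1, Cd68 and Aif1 is red throughout (0.56 to 0.89), and the row of Csf1 is mostly pale apart from Cd163 (0.63) and Mertk (0.77).

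Over 13212 genes averaging 1 FPKM or more, genes whose deviations were among the 3 most like those of each gene are given as a description over 8 libraries. For Csf1r they were Ctsc, a lysosomal cathepsin (r = 0.985), Ccdc142 (0.980) and Psap, the saposin precursor (0.976). Adgre1 was closest to Cd300c2 (0.996), Cd74, the MHC class II invariant chain (0.985), and Arid1b (0.978), and Cd68 to Ly6c2, a monocyte surface antigen (0.990), with Themis2 (0.970) also in its list. Aif1 was closest to Retnlg (0.979), Vsig10l (0.970) and the complement gene C1qa (0.967).

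Csf1 was most like Nceh1 (r = 0.994), the laminin chain Lama3 (0.990) and Ddx52 (0.989), and Mertk like Atp2b1, a calcium pump (0.977), and Pigr, the epithelial receptor for polymeric immunoglobulin (0.975). Mrc1 was most like the matrix gene Efemp1 (0.975), Kifap3 (0.975) and Fbxl8 (0.968). For Cd163 they were Klf15 (0.993), Tspyl5 (0.977) and Wdtc1 (0.973), at a level of Cd163 that rested on few fragments.

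Around Csf1 and Csf1r, a list of 21 genes of the wider axis held the other colony-stimulating factors, their receptors and the factors downstream. Of these, 20 were tested, 13 with higher and 7 with lower estimates in Nr2f2 d/d, and 1 passed an adjusted p of 0.05, against 46.7% higher and 2.62% passing over all genes tested. Their median log2 fold change was 0.11. At the unadjusted threshold of the study, 0 were higher and 3 lower, beside 8.80% of all genes tested in either direction. Cbl, an E3 ubiquitin ligase that promotes the turnover of CSF1R and other receptors, fell from 2.55 ± 0.239 FPKM (SD, n = 4) to 1.32 ± 0.372 (log2 fold change -0.77, adjusted p = 0.0496), but the call was lost in 15 of 18 alternatives, with an adjusted p of 0.0707 to 0.127 when any 1 library was left out. Csf3, the granulocyte factor, had 2.54, 1.67, 6.47 and 5.24 FPKM in the controls and 8.54, 12.4, 3.01 and 15.4 in the mutants (log2 fold change 1.16, adjusted p = 0.262). Csf2 was low in all libraries, at 0.047 to 0.172 FPKM, and was not tested.

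Among the receptors of these factors, Csf2rb, the common beta chain, was at 7.80 ± 2.35 FPKM in the controls and 4.48 ± 0.761 in the mutants (log2 fold change -0.69, adjusted p = 0.152), and passed without control replicate 2 alone (adjusted p = 0.0233). Its paralog Csf2rb2 stood at -0.60 on the same scale (adjusted p = 0.284), and as near-identical copies the 2 may share fragments. Csf2ra (0.02, adjusted p = 0.961) and Csf3r (0.57, adjusted p = 0.365) did not pass either. Spi1, which encodes PU.1, had 4.83 ± 1.02 and 5.24 ± 1.05 FPKM (log2 fold change 0.11, adjusted p = 0.757). Cebpa of the same list averaged 19.2 FPKM in the controls and 6.67 in the mutants (-1.23, adjusted p = 0.184). Tyrobp, the adaptor DAP12 of many myeloid receptors, had 47.8 ± 13.1 and 64.4 ± 28.7 FPKM (0.35, adjusted p = 0.587).

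Of 22 pan-macrophage markers, which include 5 of the 8 genes, all were tested and 19 had higher estimates in Nr2f2 d/d, as did 46.7% of all genes tested. None passed an adjusted p of 0.05 in limma, while 4 met the unadjusted threshold of the study, 3 higher and 1 lower, beside 8.80% of all genes tested. Their median was 0.35 on the log2 scale, beside -0.02 for all genes tested, and it was 0.23 to 0.51 with each library left out. The 3 genes with the smallest p were Lgmn, Aif1 and Laptm5. Lgmn, a lysosomal protease that other uterine cells make too, was 1 of the 3 with lower estimates, beside Mertk and Cx3cr1 (-0.08, adjusted p = 0.854). It had 110, 84.3, 76.7 and 72.2 FPKM in the controls against 55.0, 51.7, 52.6 and 60.6 in the mutants (log2 fold change -0.62, adjusted p = 0.0517; 0.0469 with quantile normalization). Laptm5, a lysosomal membrane protein of blood cells, was at 24.7 ± 4.72 and 34.0 ± 4.47 FPKM (0.46, adjusted p = 0.137).

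Of 23 resident and scavenger markers, with Mrc1 and Cd163 among them, 16 were tested, 11 with higher and 5 with lower estimates, and none passed (median log2 fold change 0.21). Vsig4 and Marco, markers of resident macrophages of other organs, were below 0.05 FPKM on average. F13a1, the A chain of coagulation factor XIII, had 3.21, 3.81, 3.86 and 4.19 FPKM in the controls and 1.87, 2.54, 1.83 and 3.05 in the mutants (log2 fold change -0.61, adjusted p = 0.0745), and passed only without mutant replicate 4 (adjusted p = 0.044). Cbr2, a carbonyl reductase that other cell types express as well, had a log2 fold change of 3.06 that did not pass (adjusted p = 0.161) and was 2.08 without control replicate 2, and its group means stood at a ratio of 4.03. It had 7.52 to 299.8 FPKM in the controls and 349 to 723 FPKM in the mutants. All 4 mutants were above all 4 controls, and the groups did not overlap in 15.4% of all genes tested. Folr2, a folate receptor of resident macrophages that was named after its values were seen, was at 3.36 ± 1.04 and 2.13 ± 0.245 FPKM (SD, n = 4; log2 fold change -0.52, adjusted p = 0.165).

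Mertk belongs to a list of 15 efferocytosis receptors and bridging ligands, of which 13 were tested, 9 with higher and 4 with lower estimates (median log2 fold change 0.09). Pros1, protein S, a ligand that bridges MERTK to dying cells, fell from 26.4 ± 1.3 FPKM (SD, n = 4) to 21.2 ± 0.61 (log2 fold change -0.31, adjusted p = 0.0412). Its 4 mutant libraries were below all controls, and the groups did not overlap in 15.4% of all genes tested. Pros1 was the 1 gene of the 13 that passed, beside 2.62% of all genes tested. Its adjusted p was 0.0524 to 0.139 as each library was left out. The second bridging ligand, Gas6, was at 109 and 116 FPKM on average (0.09, adjusted p = 0.727).

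Genes of other cell types differed between the same libraries as Aif1. Of 10 T and NK cell markers tested, all had higher estimates (median 0.69) and 2 passed. These were Cd3d of the T cell receptor complex (log2 fold change 0.74, adjusted p = 0.0231) and the granzyme Gzmb (1.69, adjusted p = 0.0328). Cd3d averaged 0.374 FPKM in the controls, under the 0.5 FPKM filter, and 0.964 in the mutants. Cd3e, at 0.281 and 0.728 FPKM, likewise reached the filter only through the mutants. Over all genes tested, 46.7% had higher estimates and 2.62% passed. The summed level of the T and NK list was 51.3 to 68.8 FPKM in the controls and 94.7 to 354 in the mutants. All 7 blood endothelial markers had lower estimates (median -0.74), 4 of which passed (Pecam1, Cdh5, Kdr and Emcn), and their sum was 193 to 276 against 114 to 144 FPKM. The neutrophil list rested on 4 tested genes of 11 (median 1.36), of which none passed, with S100a8 at 2.79 ± 2.2 and 12.3 ± 4.92 FPKM (SD, n = 4; adjusted p = 0.0689), S100a9 at 2.25 (adjusted p = 0.0912) and Retnlg at -1.32 (adjusted p = 0.131) on the log2 scale, and Elane, Camp, Ngp and Mmp8 below 0.05 FPKM. The call of Cd3d held in 4 of the 8 fits that left out 1 library, that of Gzmb in 2, and those of the 4 endothelial genes in 2 to 5. The part of these genes in the Aif1 values was not tested.

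The summed level of the 22 pan-macrophage markers was 555 to 874 FPKM in the controls and 680 to 1121 in the mutants, with overlap. The 7 pan-leukocyte markers, such as Cd48, Coro1a and Itgb2, overlapped as well (96.0 to 148 and 90.8 to 233 FPKM). Of them 6 had higher estimates, and Ptprc, which encodes CD45, averaged 13.8 FPKM in both groups (-0.03, adjusted p = 0.951). The median log2 fold change of the list was 0.30, with none past the test. That median is close to the 0.35 of the pan-macrophage markers, and the difference between the lists was not tested. The median of 10 monocyte markers was 0.03 on the log2 scale, and 1 of them passed, where 2.62% of all genes tested did. It was Fn1 (-1.52, adjusted p = 0.00703), a matrix protein that stromal cells also secrete. The 8 monocyte attractants had a median of 0.38 and none passed. Ccl3 was at 0.86 (adjusted p = 0.0696, and 0.042 without control replicate 3), Ccl4 at 1.34 (adjusted p = 0.101) and Ccl12 at 0.70 (adjusted p = 0.432). Lymphatic and sinusoidal endothelial markers, a list that Mrc1 shares, had a median of 0.25 with none of 7 past the test, among them Stab1 (-0.35, adjusted p = 0.169), Reln (0.50, adjusted p = 0.198) and Mmrn1 (0.51, adjusted p = 0.404).

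Of the remaining lists, dendritic cell markers had a median of 0.05, with Zbtb46 at -0.24 (adjusted p = 0.141), H2-Eb1 at 0.63 (adjusted p = 0.161) and H2-Ab1 at 0.62 (adjusted p = 0.176; fragments of related H2 genes may be shared), and eosinophil and mast cell markers 0.01, with Kit at -0.60 (adjusted p = 0.0629). In the B cell list, Ms4a1, Pax5 and Cr2 were below 0.05 FPKM, and Cd79b was the only gene tested (0.99, adjusted p = 0.0398). Tissue markers had medians of 0.30 (epithelial, Krt8 passing at 0.74), 0.55 (stromal, Dcn passing at 0.79), 0.11 (smooth muscle, none passing) and 0.11 (uterine identity, Hand2 passing at -0.71). The stromal list had 4 higher and 3 lower estimates, with Vim at -0.66 (adjusted p = 0.113). Over all genes tested, 2.62% passed. With 1 library left out, Krt8 passed in 8 of 8 fits, Dcn in 4, Hand2 in 2 and Cd79b in 1.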

How the data were processed

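RNA was sequenced from whole uterus of 4 Nr2f2 f/f and 4 Nr2f2 d/d mice, as 76-bp paired reads of an Illumina TruSeq RNA v2 kit. The authors deposited FPKM, made after trimming with cutadapt 1.12, alignment to mm10 with STAR 2.5.2b and counting with featureCounts 1.5.0-p1 (Cufflinks 2.0.2 is also named in the submitters' processing notes). The gene annotation, strand setting and FPKM formula are not given in the sources used here. FPKM are relative to the library total, so a shift in abundant transcripts moves all other genes.

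Depth was recovered from genes under 300 bases, 87.9% to 92.2% of whose low values became whole fragments (within 0.06) at 1 total per library. It was 61500000 to 92600000 fragments, and floors of 3 fragments cover counting error only. FPKM were tested with limma 3.58.1 in R 4.3.3 (lmFit, eBayes with trend, two-sided tests, Benjamini-Hochberg over 14323 genes) after 0.5 was added and genes with a mean under 0.5 FPKM were left out. Single genes were compared by exact permutation and pairs by exact permutation within groups. Lists are described by counts and medians. Tests were checked on simulated data. Coordinates and exon lengths are from GENCODE release M21 (mm10). Named genes are the 8 members, Nr2f2, the ligands, receptors and factors around Csf1, in each list the genes with an adjusted p under 0.05 or else the 3 with the smallest p, and the 3 genes most like each member. Some genes that the rule names are not reported here. Folr2 and Hmgxb3 were added later, and list genes named at a low level, such as Marco, for that level, and Gas6 as a partner of Pros1. Ptprc, Cebpa, Vim and Cd3e were also named after their values were seen. The members and lists were chosen with earlier results of these data known. The alternatives were other added values, filters, scalings and variance models, the replicate number as a block, and each library left out.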

Additional observations from a re-analysis of the deposited data

Results flagged for a closer look

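Among 59 named genes in both groups (118 groups of 4 libraries), 8 groups held 1 library whose gap to the next covered most of the group's range; chance gives about 1 in 20. Csf1 was 10.4 FPKM in Nr2f2 f/f replicate 2 and 5.04 to 5.45 in the other 3 controls. The same library stood out for Mmrn1 (4.23 against 1.32 to 1.69 FPKM) and Prg2 (1.24 against 0.252 to 0.415 FPKM). Nr2f2 was 6.90 FPKM in Nr2f2 d/d replicate 3 and 9.42 to 9.74 in the other mutants, and Kdr was 10.5 there against 7.79 to 8.24 FPKM. Small absolute gaps stood out for Zbtb46 in Nr2f2 f/f replicate 3 (2.45 against 2.28 to 2.30 FPKM), Stab1 in Nr2f2 d/d replicate 4 (8.21 against 9.02 to 9.18 FPKM) and Dcn in Nr2f2 d/d replicate 2 (673 against 713 to 719 FPKM).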

How the results depend on the processing

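Over 18 alternatives for each of the 7 tested genes, 121 of 126 log2 fold changes kept their direction, and the exceptions were those of Csf1 and Csf1r, both close to 0. With each library left out, Csf1 ranged from -0.27 to 0.05, Csf1r from -0.02 to 0.25, Adgre1 from 0.07 to 0.39, Cd68 from 0.18 to 0.51, Mrc1 from -0.39 to -0.09, Mertk from -0.46 to -0.18 and Aif1 from 0.58 to 0.85; 0 to 1 of the 7 genes then passed an adjusted p of 0.05, and 42 to 348 of all genes, the fewest without Nr2f2 d/d replicate 2. Il34 ranged from -0.41 to 0.14, Csf2ra from -0.07 to 0.18, and the correlation of Csf1 with Csf1r from -0.06 to 0.74. The list medians ranged from -0.12 to 0.07 for monocytes, from 0.46 to 1.25 for neutrophils (1.36 with all libraries) and from -0.08 to 0.26 for dendritic cells. They ranged from -0.08 to 0.33 for smooth muscle and from -0.09 to 0.14 for eosinophils and mast cells. The ranges were 0.01 to 0.18 for the Csf1 axis, 0.08 to 0.27 for resident and scavenger markers and 0.18 to 0.49 for pan-leukocyte markers. Without a filter on low values the neutrophil median was 0.11 and the B cell median 0.00, and when a mean of 1 FPKM was required the eosinophil and mast cell median was -0.29, since these lists then rest on other genes. With 0.1 added the B cell median, which is that of Cd79b alone, was 1.32. In the other tested alternatives no result of the 8 genes changed its side of the threshold, and each of the 14 other named genes with a call lost it in at least 1 setting, while 4 gained one.

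No pairing of the mice by replicate number was seen. Deviations of same-numbered libraries correlated at -0.20, -0.17, 0.05 and -0.04 by the titles and at -0.20, 0.15 and -0.04 by the column names. By the titles, 0 of 4 controls correlated best with its own number. So few correlations cannot decide whether the mice were paired. With the replicate block of the titles 1 gene of the table passed, and with that of the column names 0, where Csf1 was at 0.01 and the dendritic cell median at 0.36. By the column names, Nr2f2 f/f replicate 2 (column number 2) and Nr2f2 d/d replicate 3 (column number 4) had no partner. The contrast within those blocks therefore left both out, and the first was the control with 10.4 FPKM of Csf1. With the block of the titles every library had a partner, and Csf1 stayed at -0.18 and Aif1 at 0.70. Fitting blocks also lowers the power of the tests, and its part in the lower counts was not tested. Depth limits Cd163 most, which rested on 32 to 92 fragments.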
